A study of Mus musculus with 6 samples.

Results

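Mitosis and G2/M genes encode the cyclins, kinases, motors and scaffold proteins that carry a cell from the end of DNA replication through chromosome segregation and cytokinesis. A list of 35 such genes, given by name and identifier and drawn up with earlier results of these data known, was followed in the liver's resident macrophages, and all 35 were found among the 27835 features measured, each an Ensembl mouse gene. The samples were Kupffer cells from 3 mice of the C57Bl/6 background with the genotype CX3CR1-CreERT+/+ Stopfl/fl tdTomato, all of which had received a treatment abbreviated in the labels as sRBC. From each liver 50000 monocyte-derived Kupffer cells (mKC) and 50000 embryonic Kupffer cells (eKC) were sorted as CD45+ CD11b- F4/80+ cells, the mKC as GFP+ tdTomato- and the eKC as GFP- tdTomato+. RNA was read on Affymetrix Mouse Gene 2.0 ST arrays, 1 array per population and animal, 6 in all. The labels state neither the animals' age nor the time between treatment and sorting, and no untreated mice were analysed. Origin was assigned by the sort, so origin and other differences between the gates cannot be told apart. By the genotype, the tdTomato label rests on a recombinase driven by CX3CR1, while the stated genotype does not give the source of GFP. Kupffer cell markers were not checked here, because only the 35 genes could be tied to a symbol.

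Entry into mitosis is driven by the kinase Cdk1 with its cyclin partners, which build up before division and are then destroyed by the anaphase-promoting complex. Most of the genes in the list are transcribed from late S phase to mitosis and kept silent in resting cells, so that their transcripts are widely used to tell a population with dividing cells from a resting one. Kupffer cells are known to renew themselves by local division, and monocyte-derived cells that enter the liver can also divide there. In RNA pooled from 50000 cells, a larger number of dividing cells and more transcript per dividing cell cannot be told apart.

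Mitosis and G2/M transcripts stood higher in mKC than in eKC across nearly the whole list, by modest amounts. The mean was higher in mKC for 33 of 35 genes, against 47.8% of all features. The median difference, mKC minus eKC, was 0.48 on the log2 scale for the 35 genes and -0.01 for all 27835 features. The middle 50% of the list lay between 0.37 and 0.67, and that of all features between -0.10 and 0.09. The range ran from -0.07 for Kif23 to 1.03 for Nusap1. A difference above 0.32, the 95th percentile of all features, was found for 28 of the 35 genes, where 5% of all features lie by definition.

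Few single genes passed the test. In a limma fit of all features with the animal as a block, 4 of 35 genes rose past an adjusted p of 0.05 (Ect2, Prc1, Aurkb and Racgap1), and the share of all features called higher in mKC was 0.995%. None of the 35 was called lower, where 0.823% of all features were, and none was lower at an unadjusted p under 0.05 in limma either, where 5.41% of all features were. At that unadjusted threshold 24 genes were higher in mKC, against 6.33% of all features. Genes of the list were brighter than most features, with 34 of 35 above the median level of the table. Among the 13917 features above that median, 1.83% were called higher in mKC and 10.1% were higher at an unadjusted p under 0.05. The calls depended on the animals included, and a fit on 2 animals has 1 residual degree of freedom in place of 2. Without animal 1 none of the 35 was called in limma, where 0.905% of all features were called in either direction, and 19 were higher at an unadjusted p under 0.05, against 4.3% of all features. Without animal 2 there were 8 calls, against 1.33% of all features, and without animal 3 there was 1, against 0.614%. With all animals 1.82% of all features were called in either direction, so the whole table held fewer calls in each of these fits.

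**Figure D1:**
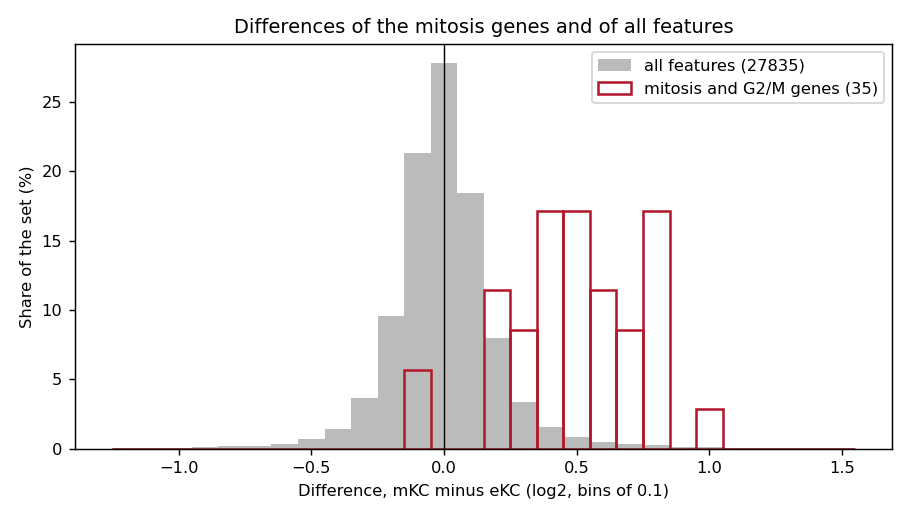
Share of each set (per cent, vertical axis) by the difference mKC minus eKC (log2, horizontal axis, bins of 0.1) for all 27835 features in grey and the 35 mitosis and G2/M genes in red outline; the axis covers the range around the list and leaves out the far tails of all features. The grey bars centre on -0.01 and the red bars lie mostly between 0.15 and 0.85, with 2 genes just below 0.

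The direction held in each animal, but the gap was narrower in animal 2. Within animals 1, 2 and 3, mKC exceeded eKC for 34, 27 and 34 of the 35 genes, and the median difference was 0.68, 0.22 and 0.58. Over all features the shares higher in mKC were 49.0%, 50.4% and 48.0%, with medians of -0.0048, 0.0025 and -0.0087. Among features above the median level they were 55.4%, 49.8% and 52.9%, with medians of 0.0322, -0.001 and 0.0141. There too the share and the median were lowest in animal 2. The lowest of the 3 differences fell in animal 2 for 28 of 35 genes and for 42.1% of these brighter features. In all 3 animals alike, 27 of 35 genes were higher in mKC, against 16.1% of all features and 22.3% of those above the median level, and none was lower in all 3, against 16.9% of all features. For 18 of 35 genes every mKC array lay above every eKC array, against 8.91% of all features and 13.8% of those above the median level, and for none did every mKC array lie below every eKC array, against 8.82% of all features.

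The narrow gap in animal 2 lay on the side of eKC. Each gene was set against its own mean over the 6 arrays, and the median of the 35 deviations was taken for each array. This median was 0.40, 0.24 and 0.21 in mKC of animals 1, 2 and 3 and -0.33, 0.06 and -0.37 in eKC. The eKC array of animal 2 was thus nearer to the mKC arrays than to the other eKC arrays. It held the highest eKC value for 30 of 35 genes, against 35.3% of all features and 38.6% of those above the median level. The spread between animals was accordingly wider in eKC: the median SD per gene was 0.259 in eKC and 0.120 in mKC (log2, n = 3). The larger SD was in eKC for 28 of 35 genes, against 50.7% of all features and 50.4% of those above the median level. Over all features both populations had a similar spread, with median SDs of 0.120 and 0.117. The upper quartile of all features in the eKC array of animal 2 was 7.43, within the range of 7.37 to 7.48 over the 6 arrays. Normalization by quantiles draws these quartiles together, so they cannot show whether this array differed technically. Without animal 2 the median difference of the list was 0.63, without animal 1 it was 0.40 and without animal 3 it was 0.41.

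**Figure D2:**
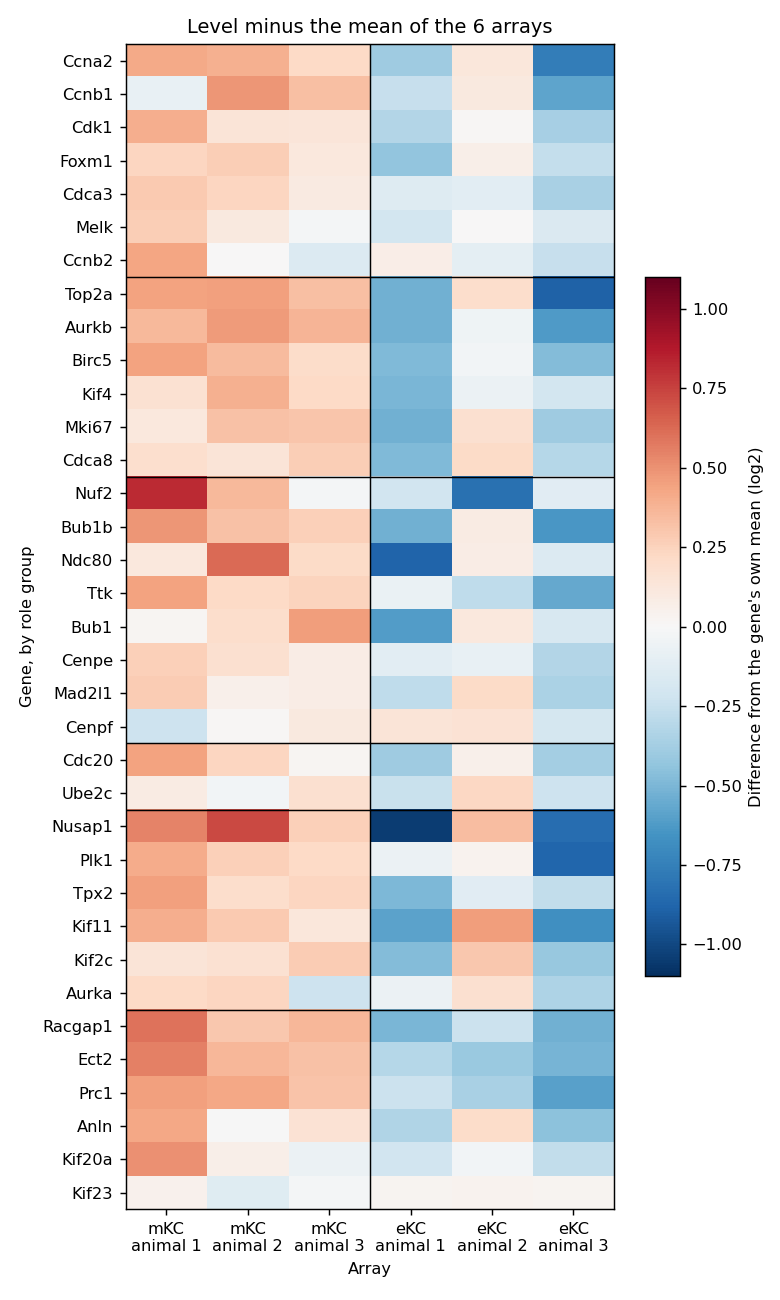
Level of each of the 35 genes minus its own mean over the 6 arrays (log2, colour scale), by array (columns) and gene (rows, in role groups parted by lines). The mKC columns are mostly red and the eKC columns of animals 1 and 3 mostly blue, while the eKC column of animal 2 is mixed, with a median of 0.06.

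Among the 7 genes of entry into mitosis, all 7 means were higher in mKC, none was called, and 5 were higher at an unadjusted p under 0.05. Their median difference was 0.42. Ccnb1 (ENSMUSG00000041431) encodes cyclin B1, the partner that activates Cdk1 at the start of mitosis. Its log2 intensity was 4.94, 5.50 and 5.35 in mKC and 4.77, 5.13 and 4.44 in eKC of animals 1, 2 and 3. The groups overlapped, with mKC of animal 1 below eKC of animal 2, but within each animal mKC was the higher. The difference was 0.48 ± 0.153 (SE), with a limma adjusted p of 0.283. Cdk1 (ENSMUSG00000019942) itself, the kinase, read 8.92, 8.66 and 8.66 in mKC and 8.20, 8.53 and 8.15 in eKC. The groups did not overlap, and the difference of 0.45 ± 0.132 did not pass the threshold (limma, adjusted p = 0.244). The largest difference of this group was in Ccna2, cyclin A2, at 0.68 ± 0.15 (limma, adjusted p = 0.118). Foxm1, the transcription factor that drives many G2/M genes, differed by 0.42, and Cdca3, which helps trigger mitotic entry, by 0.41. The smallest differences were in the kinase Melk, at 0.24, and in cyclin B2 (Ccnb2), at 0.19, and their 95% confidence intervals, -0.03 to 0.51 and -0.05 to 0.44, included 0. RefSeq lists pseudogene copies of Ccnb1, Ccnb2 and Kif4, and whether probes of these genes also read the copies was not examined.

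The group of chromosome proteins and the chromosomal passenger complex held 6 genes, all higher in mKC at an unadjusted p under 0.05 and 1 of them called. Their median difference was 0.59. Mki67 (ENSMUSG00000031004) encodes Ki-67, the surfactant-like coat of mitotic chromosomes and the usual marker of dividing cells. It read 9.47, 9.68 and 9.66 in mKC and 8.83, 9.53 and 8.96 in eKC. The eKC value of animal 2 lay just above the mKC value of animal 1, and the other eKC values lay clearly below all mKC values. The difference was 0.50 ± 0.133, 1.41-fold, with a limma adjusted p of 0.201. Top2a (ENSMUSG00000020914), the topoisomerase that untangles sister chromatids, read 7.15, 7.16 and 7.04 in mKC against 6.18, 6.90 and 5.82 in eKC. The groups did not overlap, with the mKC arrays close together and the eKC arrays spread. The difference was 0.81 ± 0.186 and did not pass (limma, adjusted p = 0.131).

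Aurkb (ENSMUSG00000020897) encodes Aurora B, the kinase of the passenger complex that corrects faulty attachments of chromosomes to the spindle. Its intensity was 9.08, 9.19 and 9.10 in mKC and 8.19, 8.68 and 8.10 in eKC. All mKC arrays lay above all eKC arrays. It rose by 0.80 ± 0.122, 1.74-fold, with a limma adjusted p of 0.0357, and was higher in 3 of 3 animals. The call was lost without animal 1 (0.76, adjusted p = 0.154) and without animal 3 (0.70, adjusted p = 0.205), and kept without animal 2 (0.94, adjusted p = 0.0307). The other subunits of the complex in the list, survivin (Birc5) and borealin (Cdca8), differed by 0.66 and 0.40, with adjusted p-values of 0.0748 and 0.409 in limma. Kif4, a motor that works on chromosome arms, differed by 0.51 (limma, adjusted p = 0.0803).

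**Figure D3:**
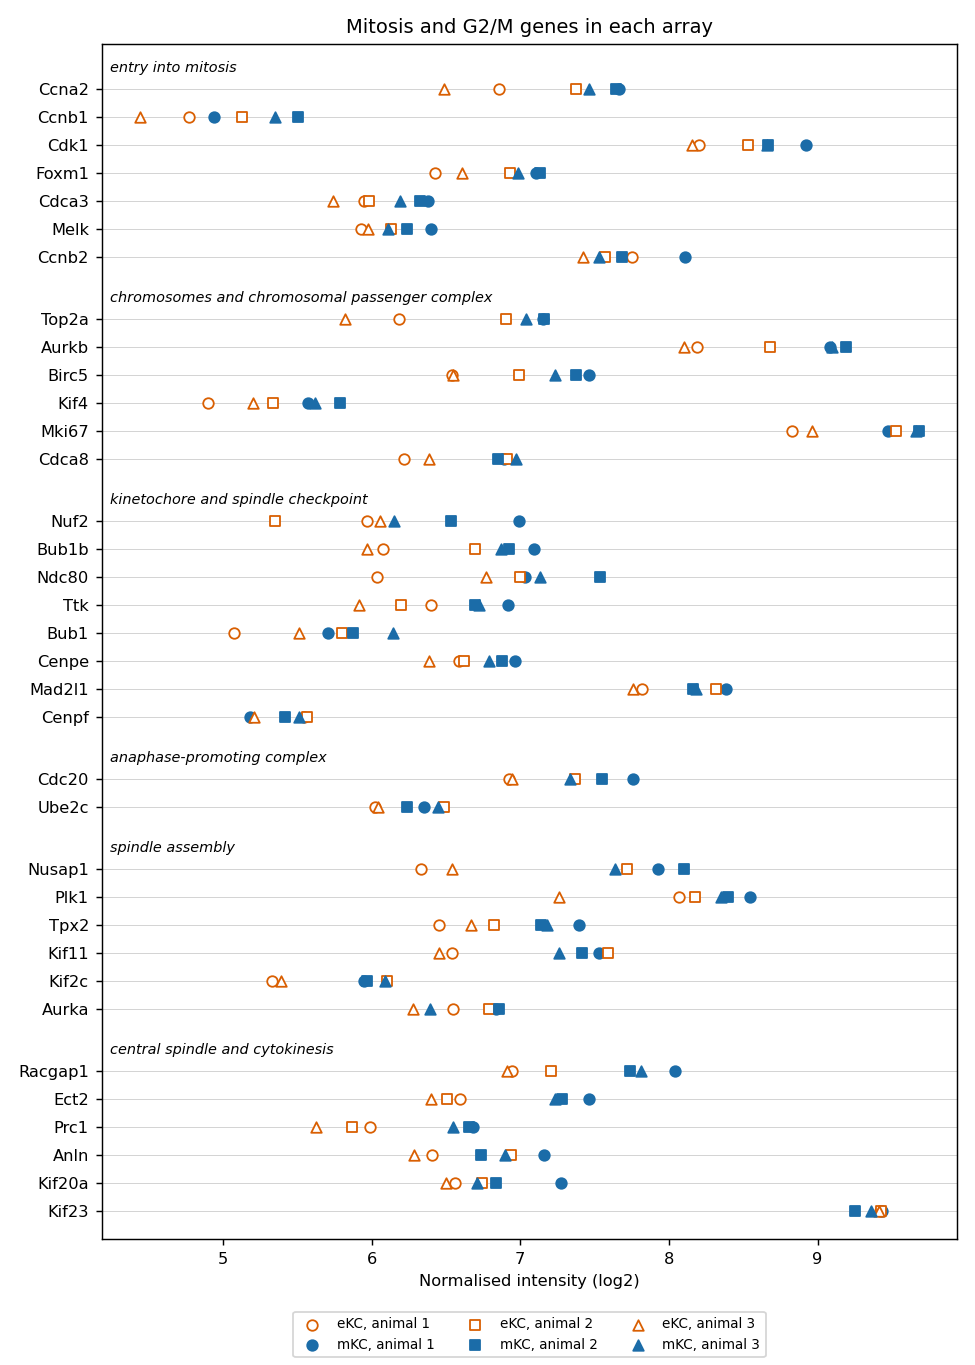
Normalised intensity (log2, horizontal axis) of each of the 35 genes in the 6 arrays, in role groups; filled blue symbols are mKC, open orange symbols eKC, and the symbol shape gives the animal. The blue symbols lie to the right of the orange ones for most genes, and the orange squares of animal 2 are the eKC value nearest to mKC in many rows. Intensities of different genes depend on their probes and are not compared.

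Of the 8 kinetochore and spindle checkpoint genes, 7 had higher means in mKC, 6 of them at an unadjusted p under 0.05, and none was called. The median difference was 0.53. Bub1 (ENSMUSG00000027379), a checkpoint kinase at the kinetochore, read 5.70, 5.87 and 6.14 in mKC and 5.07, 5.80 and 5.51 in eKC. Its groups overlapped by the eKC array of animal 2, and the difference was 0.45 ± 0.138 (limma, adjusted p = 0.268). Bub1b (ENSMUSG00000040084), whose product BubR1 holds back anaphase until chromosomes are attached, read 7.09, 6.93 and 6.87 in mKC and 6.08, 6.70 and 5.97 in eKC. Its groups did not overlap, with the eKC array of animal 2 standing apart from the other eKC arrays. The difference of 0.72 ± 0.164 had a limma adjusted p of 0.132. Nuf2 (ENSMUSG00000026683), a subunit of the complex that binds microtubules at the kinetochore, went against the pattern of animals. It read 6.99, 6.53 and 6.15 in mKC and 5.97, 5.35 and 6.05 in eKC, so that its gap was widest in animal 2 and almost absent in animal 3. The differences were 1.03, 1.18 and 0.10 in animals 1, 2 and 3, with a mean of 0.77 ± 0.212 (limma, adjusted p = 0.216). Without animal 3 it was the only gene of the list to be called.

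Ndc80, the subunit that pairs with Nuf2, differed by 0.63 (limma, adjusted p = 0.120). Its gap was 0.99, 0.54 and 0.36 in animals 1, 2 and 3, and thus also smallest in animal 3. Ttk, the kinase Mps1 at the head of the checkpoint, lay nearest to the threshold among the genes not called, at 0.61 ± 0.105 with a limma adjusted p of 0.0547. Cenpe, a kinetochore motor, and Mad2l1, the checkpoint protein Mad2, differed by 0.34 and 0.28. Cenpf, a large protein of the outer kinetochore, was at -0.07 ± 0.143, with differences of -0.37, -0.15 and 0.30 in the animals and a 95% confidence interval from -0.42 to 0.28. The interval therefore includes no difference but leaves out the median difference of the list.

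The anaphase-promoting complex was represented by 2 genes, neither of which was called. Cdc20 (ENSMUSG00000006398) encodes its activator at the start of anaphase and read 7.76, 7.55 and 7.33 in mKC and 6.92, 7.37 and 6.94 in eKC. The groups overlapped slightly, between mKC of animal 3 and eKC of animal 2, and the difference was 0.47 ± 0.141 (limma, adjusted p = 0.255). Ube2c, the enzyme that supplies ubiquitin to the complex, differed by 0.16 ± 0.147 (limma, adjusted p = 0.772) and was lower in mKC in animal 2, by -0.25.

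The 6 genes of spindle assembly all had higher means in mKC, 3 at an unadjusted p under 0.05, and none was called. Their median difference was 0.56. Aurka (ENSMUSG00000027496) encodes Aurora A, the kinase of the spindle poles, and read 6.84, 6.85 and 6.39 in mKC and 6.55, 6.79 and 6.28 in eKC. The groups overlapped, and the difference of 0.15 ± 0.097 (limma, adjusted p = 0.641) was the smallest of the group. Its 95% confidence interval ran from -0.08 to 0.39. Nusap1 (ENSMUSG00000027306), a protein that bundles microtubules near chromosomes, showed the largest difference of the list. It read 7.93, 8.10 and 7.64 in mKC and 6.33, 7.72 and 6.54 in eKC. The eKC array of animal 2 lay above the mKC array of animal 3, and the other eKC arrays lay over 1 unit below all mKC arrays. The difference was 1.03 ± 0.218, 2.04-fold, and did not pass (limma, adjusted p = 0.107), with an SD of 0.747 in eKC against 0.233 in mKC. Without animal 2 it was among the 8 genes called. Plk1, the kinase Polo, and Tpx2, which activates Aurora A, both differed by 0.59. The spindle motor Kif11 and the microtubule-depolymerising motor Kif2c differed by 0.54 and 0.39 and were lower in mKC in animal 2, by -0.17 and -0.13.

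The central spindle and cytokinesis genes encode the proteins that organise the middle of the anaphase spindle and set the cleavage furrow. They held 3 of the 4 calls, with 3 of 6 genes called, where 0.995% of all features were called higher in mKC. Only these 3 were higher at an unadjusted p under 0.05 in limma. Their group's median difference of 0.59 was close to that of the chromosome and passenger complex group. Ect2 (ENSMUSG00000027699), the exchange factor that switches on RhoA at the furrow, read 7.46, 7.28 and 7.23 in mKC and 6.60, 6.50 and 6.40 in eKC. The groups did not overlap, and the gap was alike in the animals, at 0.87, 0.77 and 0.84. Ect2 rose by 0.83 ± 0.0902, 1.77-fold, with the lowest adjusted p of the list (limma, 0.0119).

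Prc1 (ENSMUSG00000038943), which cross-links the antiparallel microtubules of the midzone, read 6.68, 6.65 and 6.54 in mKC and 5.99, 5.87 and 5.63 in eKC. It rose by 0.80 ± 0.0965, 1.74-fold (limma, adjusted p = 0.0164), and its groups did not overlap. Racgap1 (ENSMUSG00000023015), the subunit of the centralspindlin complex that recruits Ect2, read 8.04, 7.74 and 7.81 in mKC and 6.94, 7.21 and 6.91 in eKC. It rose by 0.84 ± 0.129, 1.79-fold (limma, adjusted p = 0.0368), again without overlap. In these genes the eKC array of animal 2 stood apart less than in Top2a or Nusap1, and for Prc1 and Ect2 it was not the highest eKC array. Leaving out 1 animal ended several of the calls. Without animal 1 the adjusted p-values of Ect2, Prc1 and Racgap1 were 0.0671, 0.0581 and 0.141, and without animal 3 they were 0.102, 0.13 and 0.21 (limma). Without animal 2 they were 0.0399, 0.0609 and 0.0307, so that Prc1 alone lost its call there.

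Kif23 (ENSMUSG00000032254), the motor subunit that forms centralspindlin together with Racgap1, was with Cenpf one of the 2 genes whose mean was lower in mKC. It read 9.43, 9.25 and 9.36 in mKC and 9.42, 9.43 and 9.41 in eKC. The eKC arrays were nearly identical, with an SD of 0.0068, and 2 of the 3 mKC arrays lay below them. The difference was -0.07 ± 0.0942 (limma, adjusted p = 0.86), with a 95% confidence interval from -0.30 to 0.16, which leaves out the 0.84 of Racgap1. The difference between both genes was not itself tested. Anln, the scaffold anillin of the contractile ring, and Kif20a, a midzone motor, differed by 0.39 and 0.34, and neither was called (limma, adjusted p of 0.519 and 0.427).

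**Figure D4:**
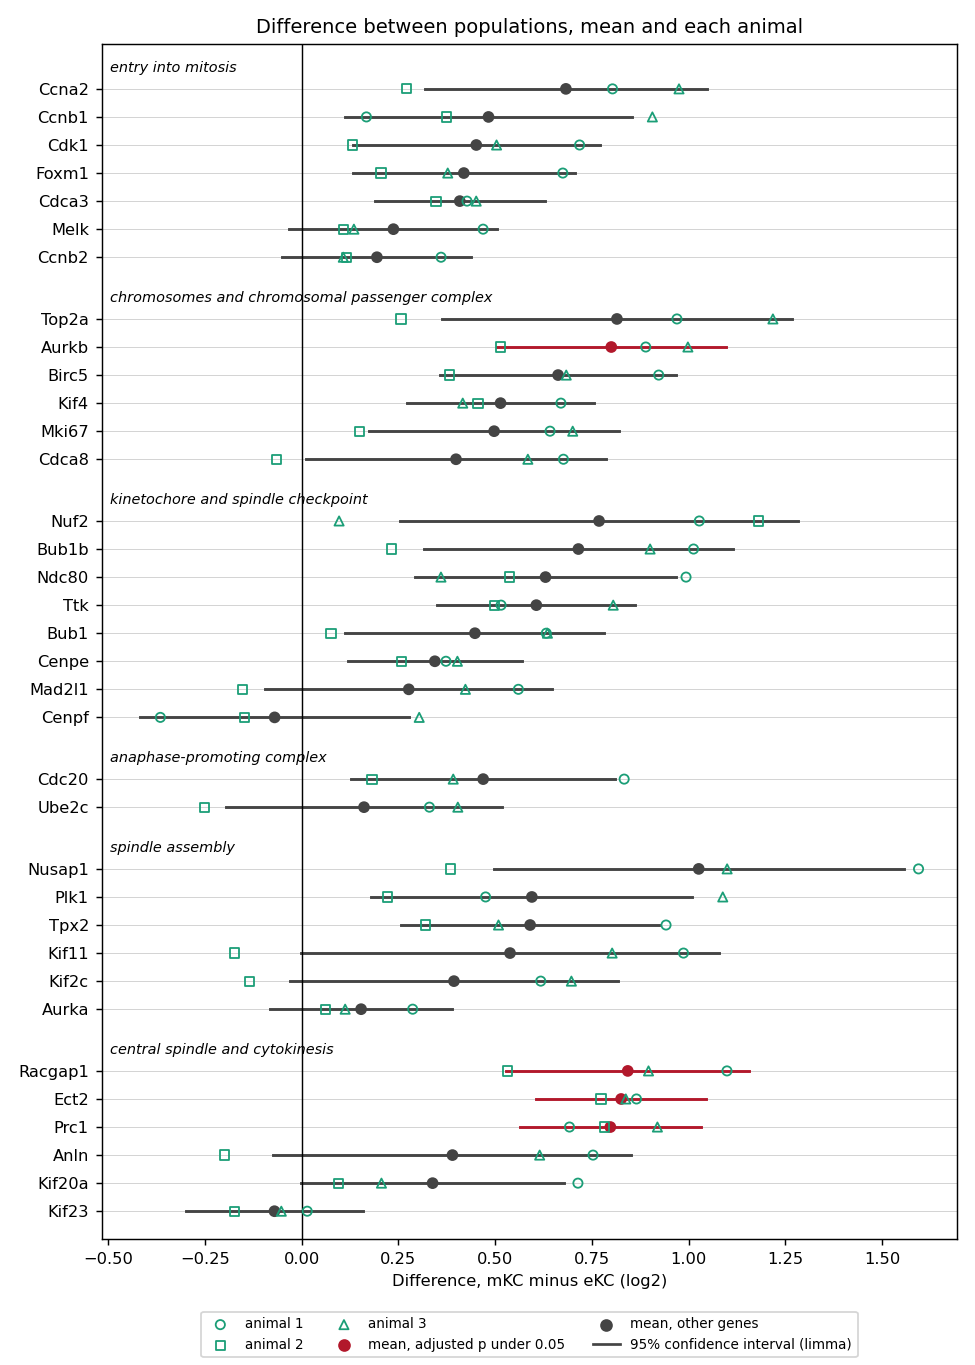
Difference mKC minus eKC (log2, horizontal axis) of each of the 35 genes, in role groups; filled points are means over 3 animals with limma's 95% confidence interval, red where the adjusted p is under 0.05, and open green symbols are single animals. The red points are Aurkb, Racgap1, Ect2 and Prc1; the squares of animal 2 lie left of 0 for 8 genes.

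Promoter sequences were set beside these values as a description. The list was drawn up as G2/M genes, so its motif shares describe such genes and not the difference between mKC and eKC. Many G2/M promoters are known to carry a cell cycle homology region, typically TTTGAA, which recruits the complex that keeps them silent in resting cells. Many also carry CCAAT boxes bound by the activator NF-Y. RefSeq promoter windows of the GRCm38.p6 build, from 250 bases before to 50 bases after the transcript start, were at hand for 30 of the 35 genes. On either strand TTTGAA was present for 22 of 30 genes (73.3%), against 20.2% of 27025 genes with a window. CCAAT was present for 22 of 30 (73.3%) against 41.1%, and both motifs for 19 of 30 (63.3%) against 8.97%. The variant TTCGAA was present for 3 of 30 genes (10%), namely Bub1, Bub1b and Top2a, against 1.8%. The 3 motifs share no full match with each other. The median difference was 0.48 for the 22 genes with TTTGAA and 0.47 for the 8 without, with ranges from -0.07 to 0.84 and from 0.24 to 1.03. It was 0.48 for the 22 genes with CCAAT and 0.51 for the 8 without, and 0.72 for the 3 genes with TTCGAA and 0.47 for the 27 without. None of the 3 motifs was found for 5 of 30 genes (16.7%), against 46.9% of all genes with a window. These were Nusap1, Nuf2, Birc5, Mad2l1 and Melk, which differed by 1.03, 0.77, 0.66, 0.28 and 0.24. These matches are letters in a window and not measured binding.

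The stretches from 100 bases before to 50 bases after the transcript start are shown for the 3 called genes that have a window, and for Kif23, whose mean was lower in mKC, to show that its window carries the same letters. Capitals mark TTTGAA and CCAAT on the printed strand or, as ATTGG, on the opposite one, and each is read 5′ to 3′ along its gene. Racgap1 lies on the minus strand at chr15:99651607-99651756, Prc1 on the plus strand at chr7:80294351-80294500, Ect2 on the minus strand at chr3:27153829-27153978 and Kif23 on the minus strand at chr9:61946750-61946899. Prc1 and Ect2 have 2 annotated starts each, of which 1 is shown.
Racgap1: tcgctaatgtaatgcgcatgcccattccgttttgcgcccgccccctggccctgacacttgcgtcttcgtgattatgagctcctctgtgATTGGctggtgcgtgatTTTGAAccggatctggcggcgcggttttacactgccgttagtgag
Prc1: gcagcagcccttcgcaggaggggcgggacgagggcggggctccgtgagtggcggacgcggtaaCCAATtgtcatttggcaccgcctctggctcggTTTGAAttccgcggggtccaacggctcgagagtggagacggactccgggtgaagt
Ect2: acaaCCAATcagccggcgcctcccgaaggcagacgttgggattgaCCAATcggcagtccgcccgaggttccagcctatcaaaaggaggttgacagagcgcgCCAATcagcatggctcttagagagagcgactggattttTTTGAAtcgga
Kif23: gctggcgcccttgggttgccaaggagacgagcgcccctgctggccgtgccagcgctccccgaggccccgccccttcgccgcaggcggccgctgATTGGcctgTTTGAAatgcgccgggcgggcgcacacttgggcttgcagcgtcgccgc
Each stretch holds 1 TTTGAA, and the CCAAT count is 1 in Racgap1, Prc1 and Kif23 and 3 in Ect2. Kif23, with a difference of -0.07, and Racgap1, with 0.84, hold the same number of both motifs here. Whether the motifs bear on the difference between mKC and eKC was not tested.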

How the data were processed

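Gene expression in 3 mKC and 3 eKC samples from 3 mice was measured on single-colour arrays after amplification of 2 ng of RNA per sample. Per the submitters' processing notes the authors used RMA, which corrects background, normalizes by quantiles and summarises probes. The values the authors deposited were read as log2 intensities, judged by their range (2.09 to 14.2); no label states the base, the software or how probes were assigned to genes. Low intensities are compressed by RMA, and the number of animals limits the precision. Identifiers were paired with symbols by the list that defines the genes. The supplied RefSeq table (GRCm38.p6) held 35 of the 35 symbols but an Ensembl identifier for 0 of 49997 genes, so the planned lists of other G2/M genes, S phase genes, cell cycle inhibitors and cell type markers were not used here.

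All 27835 features entered one linear model (limma 3.58.1, functions lmFit and eBayes, under R 4.3.3) of mKC minus eKC, with the animal as a block because the design text describes paired samples. Tests were two-sided, with Benjamini-Hochberg adjustment over every feature and no low-intensity filter. The fit had 2 residual and 4.21 prior degrees of freedom. It was also run on simulated arrays whose variances followed its own fitted prior, which cannot show whether the model suits these data. As a check of the pairing, the deviations of the mKC and the eKC array from their group's mean had correlations of -0.0323, 0.0258 and -0.0188 in animals 1, 2 and 3. The ± after a difference is the standard error from limma. Genes given with all 6 values were those called, the 8 largest differences, the 4 highest levels and the first gene of each of 6 role groups in the order set for the groups (Ccnb1, Mki67, Bub1, Cdc20, Aurka and Prc1). The genes, lists and motifs were chosen with earlier results of these data known. Alternatives changed 1 step at a time: the block (none, or a random effect), the animals (each left out), the scaling (quantiles or medians), the filter (lowest 30% or 50% removed), the variance model (intensity trend, array weights) and the threshold (adjusted p under 0.1).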

Additional observations from a re-analysis of the deposited data

How the results depend on the processing

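The 4 calls among the 35 genes, all higher in mKC, were kept in each of the 9 alternatives that used all 3 animals. An adjusted p under 0.1 was read from the main fit, so no call could be lost there. Quantile normalization was applied to values that RMA had already normalized by quantiles. Without the replicate block, so that arrays were not paired by animal, the same 4 genes were called, as with a random effect for the animal (correlation -0.0368), quantile normalization, and an intensity trend with robust estimation. Leaving out the lowest 30% of features gave 5 calls, median centring and array weights 6 each, and leaving out the lowest 50% of features or an adjusted p under 0.1 gave 7 each, all higher in mKC. The share of all features called rose too, from 1.82% to 2.95%, 2.27%, 2.11%, 4.19% and 2.68% in the same order; with the lowest 50% left out, Ccnb1 was not tested. Leaving out 1 animal gave 0 to 8 calls, all higher in mKC, and 0 calls lower in mKC, where 0.614% to 1.33% of all features were called in either direction; 3 of the 4 were kept without animal 2 and none without animal 1 or animal 3, in fits with 1 residual degree of freedom. The median difference of the list lay between 0.399 and 0.634 in these fits and between 0.4815 and 0.515 in the others. Of those others, only the scalings and the array weights altered the difference of a gene. Changes of the block, filter, intensity trend or threshold left it as in the main fit, so they say nothing on its stability. The direction of a gene could therefore change only with other scalings, with array weights or with 1 animal left out. Under these, 1 gene changed direction, Cenpf, which was not called. Its difference was -0.257 to 0.0776 with 1 animal left out, the latter without animal 1. The median difference of all features lay between -0.0079 and 0.0144 under the main and the other scalings. Signal over background is not part of the table, so detection was not assessed.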
